A study of Saccharomyces cerevisiae with 12 samples.

Results

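RGI1 (YER067W), RGI2 (YIL057C), ISF1 (YMR081C), MBR1 (YKL093W), AIM17 (YHL021C) and BOP2 (YLR267W) are 6 of the 6212 genes on the arrays of this budding yeast study. They were chosen by name from earlier results of these data, selected on strong induction in treated cells, with RGI2 and MBR1 as the paralogues of RGI1 and ISF1. The values at pH 8 are therefore a description. No p-value is given for them, and where it is said which members limma called, nothing is read from those calls. The name of the set does not say which treatment it was taken from, so the low glucose arrays may have been in view as well, and their p-values are not independent support.

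Each of the 12 arrays compared the RNA of a treated and a control culture of the same strain of Saccharomyces cerevisiae, labelled with the dyes Cy3 and Cy5. In the pH experiments, wild type cells and snf1::KanMX cells of strain DBY4741 were compared after 10 min with 16 mM KOH (pH 8.0) and after 10 min with 16 mM KCl (about pH 5.5), both in YPD medium at 28 °C, on 4 arrays per genotype. The genotype field of snf1 array 1 reads snf11::KanMX. In the glucose experiments, wild type and snf1 mutant cells of strain DBY746 were washed and held in YP medium with 0.05% or 2% glucose for 15 min (2 arrays per genotype). Nothing in the labels says whether arrays of a group came from separate cultures, so p-values measure only the spread between arrays. Values are log ratios of treated over control, taken as log2. The direction follows the order of the array titles and is likely rather than stated. A mean is given with its SD between arrays, and a difference of the genotypes with the SE from limma.

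Yeast with plenty of glucose ferments it and represses genes for respiration. When glucose runs low, the protein kinase Snf1 is needed to lift that repression. RGI1 and RGI2 encode related proteins of energy metabolism under respiratory conditions. ISF1 and MBR1 encode related serine-rich proteins whose overproduction suppresses the growth defect of hap2, hap3 and hap4 mutants, which lack parts of the activator of respiratory genes. AIM17 encodes a mitochondrial protein of unknown function, named for altered inheritance of mitochondria. BOP2 encodes a protein of unknown function.

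The arrays held values for 4056 to 5597 genes, and within a group their Pearson correlation over genes was 0.683 to 0.953. The fewest values were those of the snf1 arrays at low glucose. SNF1 itself had a value on 2 of 12 arrays, array 1 of wild type and array 3 of snf1 at pH 8. Since both channels of an array hold the same strain, this ratio does not check the deletion.

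RGI2 and ISF1 had a value on every wild type array and on none of the 6 snf1 arrays. Of 4458 genes with a value on all 6 wild type arrays they were the only 2 with this pattern (0.0449%). Another 12 genes had a value on 1 snf1 array, and 2980 had values on all 6. The reverse pattern, a value on all 6 snf1 arrays and on no wild type array, was found for 0 of 3073 genes. Within the pH 8 experiments, 4 of 4534 genes (0.0882%) had values on all 4 wild type and on no snf1 array. Besides RGI2 and ISF1 these were YLR317W (wild type mean -0.36) and YOL014W (0.65). At low glucose, where the snf1 arrays held fewer values, the pattern was more common, with 839 of 5225 genes (16.1%) measured on both wild type arrays and on neither snf1 array. RGI2, ISF1 and BOP2 were among them, and RGI1 and AIM17 were not. Per the labels, spots smaller than 120 µm and spots dimmer than 100 units in the dyes were removed by the authors, so a missing value carries no level. Which of these limits removed a spot was not analysed here.

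**Figure D1:**
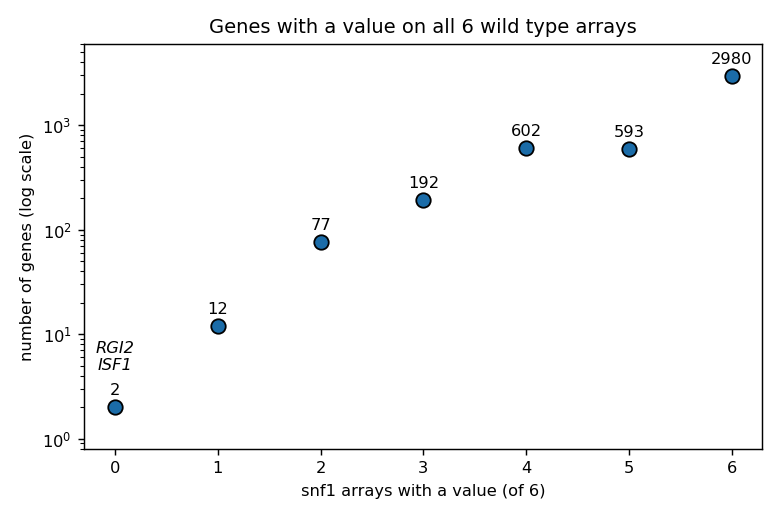
Number of genes (log axis) by how many of the 6 snf1 arrays held a value, for the 4458 genes with a value on all 6 wild type arrays. The point at 0 snf1 arrays stands for 2 genes, RGI2 and ISF1, against 2980 genes at 6 arrays.

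At pH 8 the wild type log ratios of RGI1 were 5.63, 5.36, 5.12 and 5.05 on arrays 1 to 4 (mean 5.29 ± 0.26, n = 4, 39.1-fold). AIM17 was at 4.81, 5.13, 4.81 and 5.30 (5.01 ± 0.24, n = 4, 32.2-fold). These genes stood at ranks 2 and 3 from the top of 4979 genes, and each varied little between the arrays. BOP2 was at 4.56, 3.89, 3.82 and 3.81 (4.02 ± 0.36, n = 4, 16.2-fold), with array 1 above the other arrays. ISF1 was lower, at 2.59, 2.60, 2.87 and 3.41 (2.87 ± 0.38, n = 4, 7.30-fold). MBR1, its paralogue, was at 0.78, 0.72 and 0.55 on the arrays with a value (0.68 ± 0.12, n = 3, 1.60-fold). MBR1 was the lowest member, and its values did not overlap those of any other member. All 6 members were called higher by limma at an adjusted p under 0.05, against 25.6% of all genes tested; as the members may have been chosen on this rise, nothing is read from the count. The call of MBR1 was lost without wild type array 4.

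RGI2 fell into pairs of arrays in the wild type at pH 8. Its values were 2.02 and 1.89 on arrays 1 and 2, and 3.74 and 3.60 on arrays 3 and 4 (2.81 ± 1.00, n = 4, 7.02-fold). The difference between these pairs, -1.72, was the 16th largest in size among 4534 genes with all 4 values, whose median size was 0.19. RGI1, its paralogue, differed by 0.41 between the same pairs and the other way. The deposited values of wild type arrays 3 and 4 have at most 2 decimals and those of arrays 1 and 2 up to 4, so the files of the pairs were not written alike. The part of this in the result was not tested.

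**Figure D2:**
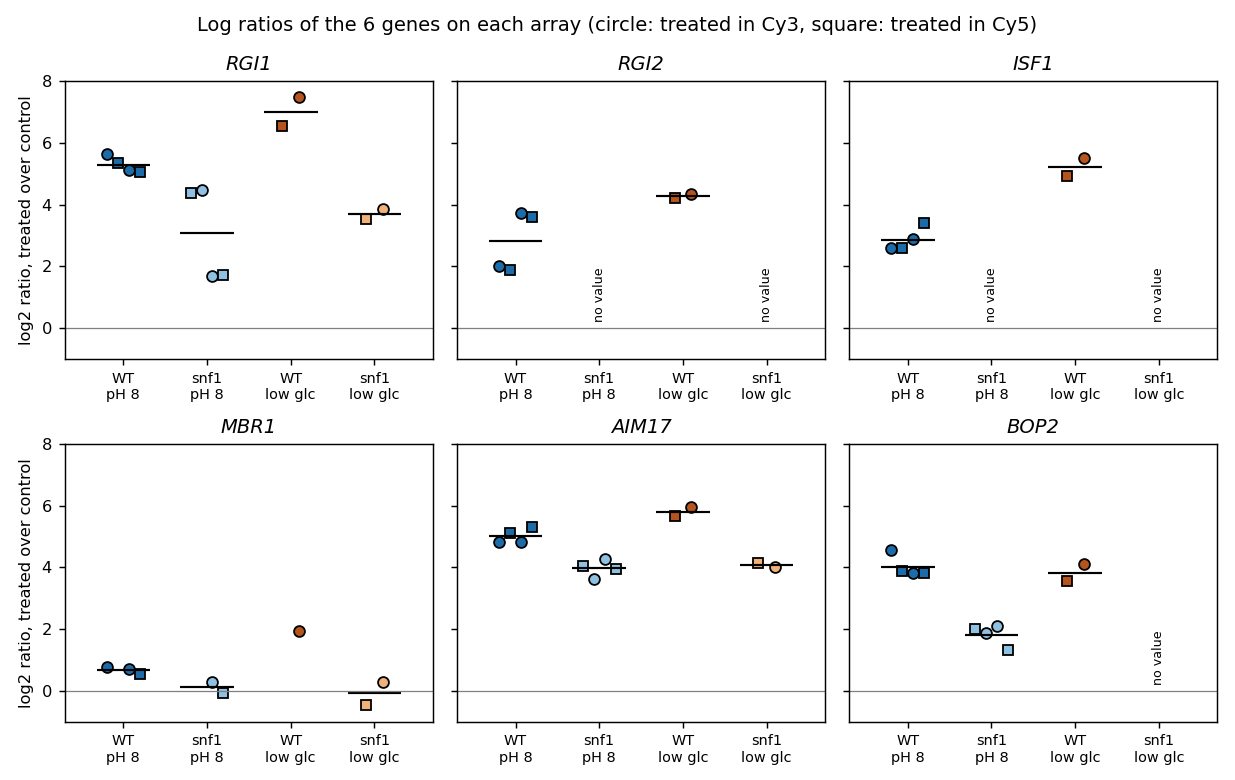
Log2 ratios of treated over control of the 6 genes on each array, by group, with circles for arrays with the treated sample in Cy3 and squares for Cy5. Lines are group means over 2 to 4 arrays, and groups in which no array held a value are marked. RGI1 and AIM17 have values in all 4 groups, and RGI2 and ISF1 in the wild type groups only.

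In wild type cells moved to 0.05% glucose, 5 of the 6 members were tested and all 5 rose (33.7% of 5225 genes were called higher). As the members may have been chosen on this rise too, nothing is read from the count. RGI1 was at 6.53 and 7.48 (7.004 ± 0.67, n = 2, 128-fold, limma adjusted p = 1.52e-06). This was the highest mean of all genes tested, and 7.475 was the largest value in the table. AIM17 was at 5.66 and 5.95 (5.80 ± 0.20, n = 2, 55.9-fold, limma adjusted p = 2.71e-09), the 3rd highest mean. ISF1 was at 4.94 and 5.52 (5.23 ± 0.41, n = 2, 37.5-fold, limma adjusted p = 9.44e-07), the 4th highest. RGI2 was at 4.20 and 4.35 (4.28 ± 0.11, n = 2, 19.4-fold, limma adjusted p = 9.38e-05), and BOP2 at 3.55 and 4.11 (3.83 ± 0.40, n = 2, 14.2-fold, limma adjusted p = 1.09e-07). MBR1 had a value on array 2 alone (1.95, 3.85-fold) and was not tested. The calls of the 5 genes did not change when either array was left out.

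Side by side, RGI1, RGI2, ISF1, MBR1 and AIM17 had higher means in wild type at low glucose than at pH 8. For MBR1 the low glucose side is 1 array. The values of BOP2 overlapped (3.55 and 4.11 against 3.81 to 4.56). The differences of the means were 2.36 for ISF1, 1.72 for RGI1, 1.47 for RGI2, 1.26 for MBR1 and 0.79 for AIM17. Strain, medium change and time differ between these experiments, so their effects cannot be told apart. The spread of all genes was also wider on the wild type low glucose arrays, with median absolute deviations of 0.95 and 0.97 against 0.56 to 0.59 at pH 8. When every array was scaled to a common median absolute deviation, the order turned for RGI1 (4.42 at low glucose against 5.53 at pH 8), AIM17 (3.67 against 5.24) and RGI2 (2.70 against 2.93). It kept its direction for ISF1 (3.30 against 2.999) and MBR1 (1.21 against 0.72). The scaled means of BOP2 were 2.42 at low glucose and 4.21 at pH 8, a wider gap than before scaling.

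**Figure D3:**
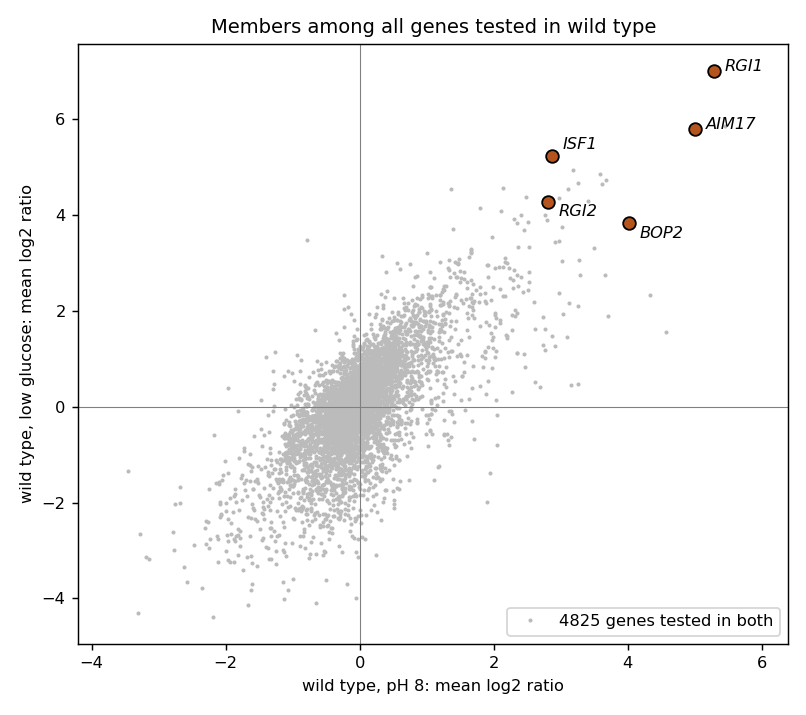
Mean log2 ratio in wild type at pH 8 (horizontal) and at low glucose (vertical) for all genes tested in both comparisons, with 5 members in orange. RGI1 (5.29 and 7.004) and AIM17 (5.01 and 5.80) lie at the upper right edge, and MBR1 was not tested at low glucose.

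The snf1 arrays give the same ratios in the mutant. Both channels of an array hold the same strain, so a smaller ratio does not tell the treated level from the control level. In snf1 at pH 8, RGI1 was at 4.39 and 4.47 on arrays 1 and 2 and at 1.70 and 1.71 on arrays 3 and 4 (3.07 ± 1.57, n = 4, 8.38-fold). AIM17 was at 4.04, 3.63, 4.28 and 3.94 (3.97 ± 0.27, n = 4, 15.7-fold), and BOP2 at 1.99, 1.88, 2.10 and 1.32 (1.82 ± 0.35, n = 4, 3.54-fold). The means of these 3 genes lay below those of the same genes in wild type at pH 8. MBR1 had values on arrays 3 and 4 alone (0.29 and -0.07) and was not tested. All 3 tested members were called higher in snf1, as were 21.7% of 4591 genes.

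The difference of the responses, snf1 minus wild type at pH 8, was -2.20 ± 0.19 (SE) for BOP2, -2.22 ± 0.59 for RGI1 and -1.04 ± 0.17 for AIM17. BOP2 and AIM17 were called lower in snf1, while 0.753% of 4380 genes were. The members may have been chosen on the same arrays, so nothing is read from this count. The call of AIM17 was lost without wild type array 4, without snf1 arrays 1 and 2, without wild type arrays 3 and 4, and when arrays were scaled (-0.47). RGI1 was called without snf1 array 1 (-2.77), with arrays 3 and 4 of snf1 alone (-3.58) and with arrays 1 and 2 alone (-0.86). With arrays 1 and 2, and 3 and 4, averaged and counted as 1 replicate each, neither BOP2 nor AIM17 was called.

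**Figure D4:**
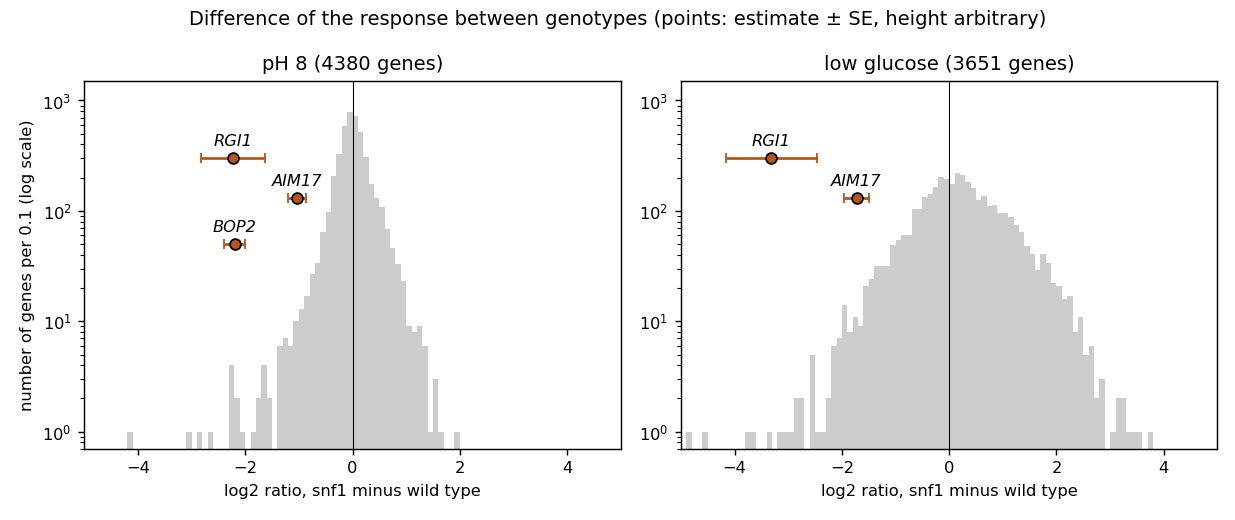
Differences of the log2 ratios, snf1 minus wild type, at pH 8 (left, 4380 genes) and at low glucose (right, 3651 genes) as histograms with a log axis. Orange points with bars give estimate ± SE of RGI1, AIM17 and BOP2 at a height without meaning. RGI1 is at -2.22 and -3.31, AIM17 at -1.04 and -1.73, and BOP2 at -2.20 at pH 8.

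The difference between arrays 1 and 2 and arrays 3 and 4 of snf1 at pH 8 was 2.73 for RGI1, the 6th largest in size of 4005 genes with 4 values (median size 0.23). It was -0.28 for AIM17 and 0.23 for BOP2. Both dyes were used in each pair of arrays. Among genes named after their values were seen, the pairs differed most for BTN2 (5.60), FES1 (3.41) and APJ1 (3.21), which act in protein folding or the sorting of misfolded proteins. Of the general stress genes, the small heat shock protein HSP26 was at 3.81 and 3.68 against 1.05 and 0.69, and the Hsp70 chaperone SSA4 at 2.53 and 3.19 against 0.46 and 0.86. The median over 21 general stress genes was 2.02 and 2.20 on snf1 arrays 1 and 2, 1.41 and 1.38 on arrays 3 and 4, and 1.48 to 1.68 on the wild type arrays. In the wild type the same genes also differed between the pairs: HSP26 was at 1.08 and 1.18 on arrays 1 and 2 and at 0.24 and 0.48 on arrays 3 and 4, and SSA4 at 2.10 and 1.44 against 0.08 and -0.29. BTN2 had the widest wild type split of all 4534 genes (3.75). RGI1 lay between 5.05 and 5.63 on these 4 arrays. The part of these differences in the values of RGI1 was not tested.

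**Figure D5:**
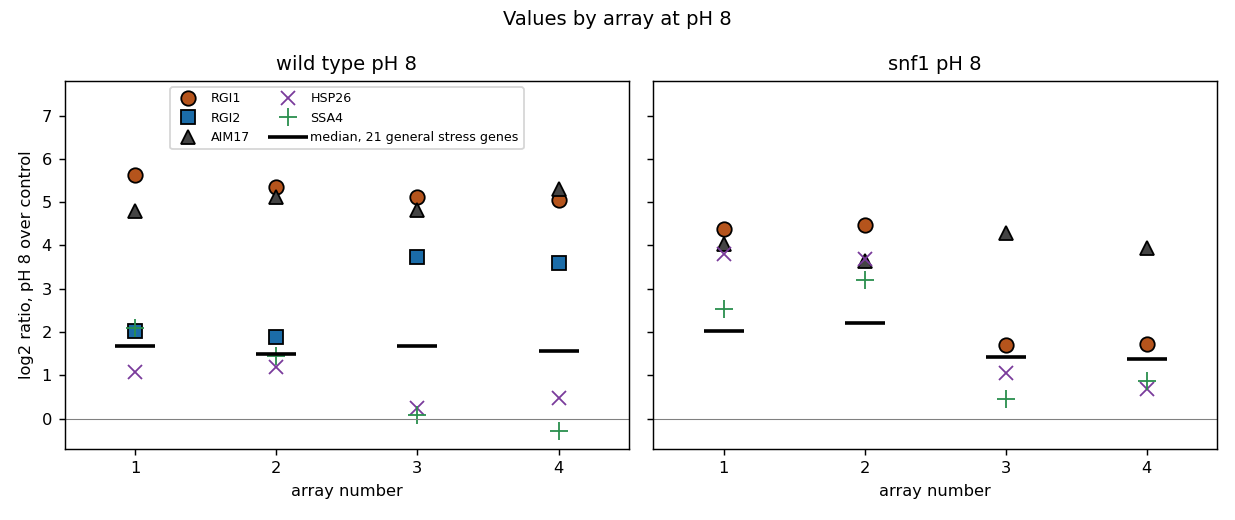
Log2 ratios at pH 8 by array number in wild type (left) and snf1 (right) for RGI1, RGI2, AIM17, HSP26 and SSA4, with bars for the median of 21 general stress genes. RGI1, HSP26 and SSA4 are higher on snf1 arrays 1 and 2 than on arrays 3 and 4, AIM17 is not, and RGI2 has no value in snf1.

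At low glucose in snf1, RGI1 rose (3.52 and 3.86, mean 3.69 ± 0.24, n = 2, 12.9-fold, limma adjusted p = 0.000486) and so did AIM17 (4.14 and 4.01, mean 4.08 ± 0.09, n = 2, 16.9-fold, limma adjusted p = 5.4e-08). MBR1 was at -0.47 and 0.30 (limma adjusted p = 0.681). Thus 2 of 3 tested members were called higher, where 28.9% of 3703 genes were. RGI2, ISF1 and BOP2 had no value on these arrays, and nothing is read from the count. AIM17 stayed among the 6 highest means in the mutant and RGI1 among the 10 highest.

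Both genes rose by less than in wild type cells. RGI1 differed by -3.31 ± 0.84 (SE, limma adjusted p = 0.00831) and AIM17 by -1.73 ± 0.24 (limma adjusted p = 0.000244). Of 3651 genes, 13.0% were called lower in snf1. The members may have been chosen on the wild type rise at low glucose, so the p-values of RGI1 and AIM17 are not independent support. The SE and p-value of RGI1 rest on its spread over all 12 arrays, not on the low glucose arrays alone. That spread was widest in snf1 at pH 8 (SD 1.57), against 0.67 in wild type and 0.24 in snf1 at low glucose. The call of RGI1 was lost without wild type array 2 (-2.92) and without snf1 array 1 (-3.28). Both calls were lost when arrays were scaled to a common median absolute deviation, where RGI1 was at -0.59 (limma adjusted p = 0.679) and AIM17 turned to 0.53 (limma adjusted p = 0.472). The snf1 arrays had median absolute deviations of 0.67 and 0.53, against 0.95 and 0.97 in wild type, so this scaling shrinks the wild type values most.

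Across the 4 groups RGI1 and AIM17 had the same order of means: wild type at low glucose, wild type at pH 8, snf1 at low glucose, snf1 at pH 8. For both genes the values of the latter 2 groups overlapped. The snf1 mean of RGI1 at pH 8 is that of array pairs at 4.43 and 1.70. After scaling the order was no longer shared: AIM17 ran from wild type at pH 8 (5.24) over snf1 at pH 8 (4.76) and snf1 at low glucose (4.20) to wild type at low glucose (3.67), while RGI1 ran from wild type at pH 8 (5.53) over wild type at low glucose (4.42) and snf1 at low glucose (3.83) to snf1 at pH 8 (3.55). The difference between RGI1 and AIM17 in how far they dropped was not tested. BOP2 had overlapping values in the wild type groups and lower ones in snf1 at pH 8.

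Within the paralogue pairs, the gene with the higher response was the same on every array that allowed the comparison. RGI1 and ISF1 were selected on strong induction and RGI2 and MBR1 as their paralogues, so this direction was largely set by the choice. RGI1 minus RGI2 was 3.61, 3.47, 1.38 and 1.45 on the wild type arrays at pH 8 (2.48 ± 1.23, n = 4) and 2.33 and 3.12 at low glucose (2.73 ± 0.56, n = 2). RGI1 was above RGI2 on 6 of 6 arrays; 2 arrays allow an exact sign-flip permutation p of 0.5 at the smallest, which is the value found at low glucose. ISF1 minus MBR1 was 1.81, 2.15 and 2.86 at pH 8 (2.27 ± 0.54, n = 3) and 3.57 on the low glucose array with both values, above 0 on 4 of 4 arrays. The pairs also differed in what the snf1 arrays held: RGI1 had a value on 6 of them and RGI2 on none, and MBR1 had a value on 4 and ISF1 on none. Spots of different genes can compress ratios differently, and related sequences may share signal; the probe sequences were not examined.

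Genes with the most similar pattern were sought among named genes with a value on at least 10 of the arrays that measured a member. Pearson coefficients describe arrays that fall into at most 4 groups and carry no test. The coefficients of BOP2, and those of MMS21 and PSF1 with RGI1, leave out snf1 at low glucose, where these genes had no value. For AIM17 they were SUC2, the invertase (0.982 over 12 arrays), AIM39 (0.974 over 10) and JEN1, the lactate transporter (0.952 over 12). The pattern was alike but the level was not. SUC2 means were 2.76, 0.50, 4.00 and 0.92 in wild type and snf1 at pH 8 and in wild type and snf1 at low glucose, while AIM17 stayed at 3.97 or above in the mutant. For RGI1 they were GLG1, a self-priming starter of glycogen synthesis (0.951 over 11 arrays), MMS21, a SUMO ligase (0.927 over 10), and PSF1, a DNA replication factor (0.920 over 10). PSF1 had means of 0.15 and -0.11 in wild type and snf1 at pH 8 and 0.615 in wild type at low glucose, far below those of RGI1. For BOP2 they were MAL33, a maltose activator (0.943), SSH4 (0.930) and CLD1, a cardiolipin deacylase (0.919), each over 10 arrays. RGI2, ISF1 and MBR1 had values on 6, 6 and 8 arrays, so no gene could be scored against them.

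Other genes of respiratory growth were compared with the members in lists that do not include them. Of 33 tested genes of the respiratory chain and ATP synthase, 28 rose and 3 fell in wild type at low glucose, with a median of 1.39 beside 0.05 over all genes, of which 33.7% were called higher. The largest changes were those of CYC7, a cytochrome c isoform (4.01 ± 0.47), NDI1, an NADH dehydrogenase (2.96 ± 0.09), and COX5B, a cytochrome oxidase subunit (2.69 ± 0.43; n = 2 each). At pH 8 in wild type 15 of 33 were called higher and 0 lower, with a median of 0.18 beside -0.05 over all genes, of which 25.6% were called higher. In the mutant at low glucose, where fewer of these genes could be tested, 15 of 26 rose, against 28.9% of all genes. Their median was 0.49 beside 0.12 over all genes. The difference of the genotypes at low glucose was called lower in 12 of 25 genes tested and higher in 2. Over all 3651 genes tested the counts were 474 and 1007.

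Of 19 tested genes derepressed for nonfermentable carbon, 17 rose and 1 fell in wild type at low glucose (median 1.25; 33.7% of all genes rose), led by JEN1 (4.56 ± 0.04, n = 2), ADY2, an acetate transporter (3.03 ± 0.05, n = 2), and MLS1, a malate synthase (2.88 ± 0.33, n = 2). In snf1, where fewer of these genes could be tested, 3 of 11 rose (median 0.37), close to the 28.9% of all genes. The medians of the genotypes are thus over different sets of genes. JEN1 was at -0.03, ADY2 at 0.21 and MLS1 at 2.34 in snf1. The difference of the genotypes was called lower in 5 of 10 genes tested and higher in 0, where 13.0% of all genes were called lower. Of 10 genes of the Hap complex and other activators, 4 rose and 3 fell in wild type at low glucose, near the shares over all genes (1759 and 1646 of 5225). HAP4, the inducible subunit, was at 2.40 ± 0.33 (n = 2) in wild type and 2.80 in snf1, HAP2 at 1.77 ± 0.30 (n = 2) and 0.36, and HAP1, a haem-dependent activator, at -1.28 ± 0.11 (n = 2) and 0.04.

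Of the general stress genes tested, 20 of 22 rose in wild type and 20 of 21 in snf1 at low glucose, with medians of 2.80 and 2.53, against 33.7% and 28.9% of all genes. The difference of the genotypes was called lower in 9 of 21 and higher in 3, against 474 and 1007 of 3651 genes. Among them were HSP12, a membrane-stabilising protein (4.38 ± 0.44, n = 2), TFS1 (4.35 ± 0.02, n = 2) and MSC1 (4.29 ± 0.33, n = 2) in wild type. Of 25 other genes named AIM, 18 rose in wild type at low glucose and 0 fell (median 0.67), against 33.7% of all genes that rose, with AIM41 (2.33 ± 0.17, n = 2) highest.

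The nearest genes on either side of a member were taken from the R64 annotation of RefSeq. In wild type at pH 8 the 9 of 12 neighbours with a value lay between -0.74 (SPO11, beside AIM17, n = 2) and 0.59 (YJU3, beside MBR1, n = 4). YJU3 was close to MBR1 in this group (0.68 ± 0.12, n = 3), and in snf1 at pH 8 it was the higher of the pair, with 0.52 against 0.11 (n = 2 each). At low glucose YMR082C, beside ISF1, was at 1.63 (n = 2), the highest of them. BOP2 lies between PDR8 (0.24 ± 0.17, n = 4) and SEC22 (-0.27 ± 0.15, n = 4), which gave these values in wild type at pH 8.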

How the data were processed

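The deposited table holds log2 ratios, 1 per gene and array; their base is unstated and was taken as log2, since the largest value (7.475) is 178-fold as log2 but 1763-fold as a natural log, above the 655-fold span from 100 units to the 16-bit maximum of 65535. Per the labels, 8 µg of total RNA were labelled by an oligo(dT)-primed indirect method, dyes were swapped in equal numbers within groups, and small or dim spots were left out. How the ratios were normalized is not stated in these sources. Medians of the arrays ranged from -0.065 to 0.112. Arrays of opposite dye orientation correlated at 0.539 or more over 36 pairs. Of 6212 rows, 5662 matched the R64 locus tags, among them all 6 members.

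With limma 3.58.1 (R 4.3.3), the 12 arrays entered a single model with a mean for each of 4 groups and a dye effect per gene (4.56 prior degrees of freedom). Two-sided p-values received the Benjamini-Hochberg adjustment across all tested genes (a value on at least 3 of 4 arrays at pH 8, or both at low glucose, in each group) and called under 0.05. The fit was checked on data made with known changes. In that check the arrays varied independently, so it does not cover the pairs of arrays seen at pH 8. Members, lists and tests were chosen with earlier results of these data known. Named by rule are the members, the 3 most similar genes of each, SNF1, nearest neighbours and up to 3 called genes per list. Outside this rule stand HSP26, SSA4, the genes with the widest split between array pairs and those without a value in snf1. The main fit did not pair the genotypes by experiment number. Array numbers limit the precision. Alternatives changed the dye term, centring, scaling, missing-value filter, arrays and pairing. No sequence was printed, since no sequence table was used here.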

Additional observations from a re-analysis of the deposited data

Results flagged for a closer look

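AIM17 and BOP2 rose less in snf1 than in wild type at pH 8, with differences of -1.04 and -2.20, and at low glucose RGI1 and AIM17 did, with -3.31 and -1.73. In each case the fit tested the difference of the genotypes itself. At pH 8 the members may have been chosen on the same arrays, so nothing is read from those calls. The low glucose arrays may have been in view as well, so the calls there are not independent support. Neither pH 8 call was made with arrays 1 and 2, and 3 and 4, averaged. After scaling to a common median absolute deviation, AIM17 was not called at pH 8 (-0.474), and neither RGI1 nor AIM17 at low glucose. BOP2 on array 1 of wild type at pH 8 (4.555) stood apart from the other 3 arrays, which lay between 3.81 and 3.89. Chance sets such a value apart in about 1 of 20 groups.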

How the results depend on the processing

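Scaling arrays to a common median absolute deviation gave 506 in place of 1481 genes called for the genotype difference at low glucose with 0 in place of 2 members, turned AIM17 there to 0.529, left 1 in place of 2 members called for the difference at pH 8, and gave 2154 in place of 3405 genes in wild type at low glucose. The genotype difference at pH 8 was called for 51 genes, for 30 with the arrays of that treatment alone, for 3 with arrays 1 and 2, and 3 and 4, averaged (0 members), and for 22 to 161 when single arrays were left out (1 to 3 members). In alternatives chosen after seeing the data, it was called for 139 genes without wild type arrays 1 and 2, for 21 without arrays 3 and 4 (1 member) and for 395 without snf1 arrays 3 and 4. Then wild type at pH 8 without arrays 3 and 4 gave 1736 in place of 2766 genes, and snf1 at pH 8 without arrays 1 and 2 gave 1391 in place of 2203. Leaving out single arrays at low glucose gave 814 to 1056 in place of 1696 genes in snf1, 959 to 1135 genes for the difference (1 to 2 members), and MBR1 in snf1 between -0.336 and 0.168. A group left with 1 array was assumed to vary like the others. The paralogue differences kept their sign, at 2.35 to 2.80 for RGI1 and 2.27 to 2.86 for ISF1.

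With the experiment number as a replicate block, 50 genes differed between genotypes at pH 8 and 1358 at low glucose, and no call of a member changed. Deviations of same-numbered arrays correlated at -0.39 to 0.07 at pH 8 and at 0.29 at low glucose. At pH 8, arrays 1 and 2 differed in dye orientation between the genotypes. At low glucose, groups of 2 arrays give the same value for both numbers. These correlations therefore cannot decide whether the numbers pair the samples.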

Other observations

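Among 202 genes with a mean log2 ratio over 2 in wild type at low glucose, 22 had a value on neither snf1 array of that treatment, a smaller share than the 839 of 5225 genes (16.1%) with this pattern at any level. ISF1 (5.23) was the highest of them, followed by YMR206W (4.55), ATO2, an ammonium and acetate transporter homologue (4.34), RGI2 (4.28) and BOP2 (3.83). The next were FLO8, a flocculation activator (3.27), MAL33, a maltose activator (3.04), UGX2 (3.03), YNL195C (2.99) and YKR075C (2.81). The other 12 lay between 2.08 and 2.74. The limit of 2 was set after the data were seen.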
